A study of Mus musculus with 6 samples.

Results

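The sterol and fatty acid synthesis genes are 36 genes that encode the enzymes, sensors and carriers with which a cell makes cholesterol and long-chain fatty acids. They were chosen by name from the 51888 features of the gene count tables, and all 36 were found and passed the filter on low counts, among 14302 features tested. By role, 7 act in the mevalonate pathway up to farnesyl pyrophosphate, 11 in squalene and sterol ring synthesis, 5 in sterol sensing and 2 in sterol transport inside the cell. A further 4 build the fatty acid chain, and 7 lengthen or desaturate it.

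RNA of whole hearts from 6 mice on a C57BL/6 background was sequenced. The 3 controls are titled L/L, with the genotype given as Elac2 +/+. The 3 knockouts are titled L/L, cre, with the genotype given as Elac2 -/-, and in them an exon of Elac2 flanked by loxP sites was cut out by cre under the muscle creatine kinase promoter. Elac2 encodes RNase Z, the nuclease that cuts the 3' trailer from new tRNAs, nuclear and mitochondrial. Cells of the heart in which that promoter is silent still carry an intact gene, no age is stated, and the labels give no sample with cre and an intact Elac2.

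Cholesterol is built from acetyl-CoA through mevalonate and farnesyl pyrophosphate to squalene, which is oxidised, closed into a ring and trimmed in the endoplasmic reticulum. Fatty acids are built from the same acetyl-CoA by acetyl-CoA carboxylase and fatty acid synthase. Both routes share the SREBP transcription factors, which Scap carries to the Golgi for cleavage when sterols are scarce and which Insig proteins hold back when sterols are plentiful. The adult heart burns far more fatty acid than it makes, and there the malonyl-CoA made by the mitochondrial acetyl-CoA carboxylase is best known as a brake on fatty acid entry into mitochondria.

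The library totals ran from 9850100 to 14461110 counts, of which mitochondrial-encoded features took 49.33 to 61.07% in controls and 33.32 to 36.66% in knockouts. Levels below are CPM, counts set against the TMM-adjusted size of the library, so a fold change compares a gene with the bulk of genes. With library size alone as the scale, the median log2 fold change over all tested genes was 0.68 in place of -0.01. Elac2, the targeted gene, was at 15.0, 14.0 and 13.0 CPM in controls 1, 2 and 3 and at 5.36, 5.63 and 6.52 CPM in the knockouts, so every knockout was below every control. Its log2 fold change was -1.27, with an SE of 0.15 and an adjusted p = 2.12e-04 from the quasi-likelihood test of edgeR. A pair of libraries stood apart for adipocyte markers, control 1 and knockout 3, and results that rest on them are given with and without them. Heart tissue was checked by its markers. Myh6, the main adult cardiac myosin, was at 19271 ± 920.1 CPM (SD, n = 3) in controls and at 7712 ± 423 CPM (SD, n = 3) in knockouts. Myh7, another cardiac myosin, went the other way, from 109 ± 49.1 CPM (SD, n = 3) to 1162 ± 609 CPM (SD, n = 3). Of the 10 cardiomyocyte markers 5 were called lower, 1 higher and 4 were not called. In whole-heart RNA, fewer cells of a type and less RNA per cell cannot be told apart.

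Promoters of sterol genes are known for sterol regulatory elements, bound by SREBPs, and for CCAAT boxes, bound by the SREBP partner NF-Y. RefSeq promoter windows (GRCm38.p6, 250 bases before to 50 after a start site) were found for 28 of the 36 genes. The 250 bases before the start are printed for 4 of them. Hmgcs1 is shown because it alone held the SRE-like letters, and Cyp51, Msmo1 and Nsdhl because they encode enzymes of sterol ring trimming and were all called higher in the knockout. Capitals mark TCACNCCAC (SRE-like) and CCAAT matches on either strand, so ATTGG is CCAAT on the other strand.
Hmgcs1, chr13:119690101-119690350, plus strand: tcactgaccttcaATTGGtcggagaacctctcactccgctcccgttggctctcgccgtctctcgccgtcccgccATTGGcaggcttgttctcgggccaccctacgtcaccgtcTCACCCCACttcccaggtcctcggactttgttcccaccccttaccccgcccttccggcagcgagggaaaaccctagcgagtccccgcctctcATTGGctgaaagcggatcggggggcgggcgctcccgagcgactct
Cyp51, chr5:4104698-4104947, minus strand: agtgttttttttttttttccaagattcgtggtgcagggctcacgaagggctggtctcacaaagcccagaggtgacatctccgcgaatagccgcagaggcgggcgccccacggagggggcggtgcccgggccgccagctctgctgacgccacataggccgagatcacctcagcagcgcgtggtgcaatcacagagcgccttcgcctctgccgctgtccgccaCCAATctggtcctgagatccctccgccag
Msmo1, chr8:64733579-64733828, minus strand: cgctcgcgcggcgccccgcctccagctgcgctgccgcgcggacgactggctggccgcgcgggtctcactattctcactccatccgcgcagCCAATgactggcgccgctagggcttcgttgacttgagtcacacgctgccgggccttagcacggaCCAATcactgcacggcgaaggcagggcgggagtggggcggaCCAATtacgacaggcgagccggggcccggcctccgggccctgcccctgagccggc
Nsdhl, chrX:72918271-72918520, plus strand: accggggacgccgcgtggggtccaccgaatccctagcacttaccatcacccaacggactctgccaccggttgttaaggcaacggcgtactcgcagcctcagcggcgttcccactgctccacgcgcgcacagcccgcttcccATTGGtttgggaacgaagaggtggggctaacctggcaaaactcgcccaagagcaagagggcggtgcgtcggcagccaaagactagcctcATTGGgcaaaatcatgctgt
The Hmgcs1 window held TCACCCCAC, with its first base 137 bases before the start. The window of Msmo1 held 3 CCAAT boxes, that of Cyp51 held 1, and those of Nsdhl and Hmgcs1 held 4 each, some of them past the start and so not printed here.

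Across the 28 genes with a window, 23 held CCAAT on either strand (82.1%), against 42.5% of the 9872 tested genes with a window. The SRE-like letters were in 1 of 28 (3.57%), against 1.39% of tested genes. The E-box letters CACGTG, a palindrome, were in 6 of 28 (21.4%), against 11.7%, and TGATGNAAT, written for the ATF4 composite element, was in 0 of 28, against 0.496%. Matches of different motifs were allowed to overlap, and genes with several start sites counted once if any window held the letters. CCAAT was held by genes called higher (Cyp51, Msmo1, Nsdhl, Elovl1), called lower (Dhcr7, Acacb) and not called (Hmgcs1, Fasn, Mvk). Scap, called higher, held none, and the called genes Fdps, Sqle, Fdft1, Npc1 and Scd2 had no window. A link between CCAAT and the response was not tested.

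The genes did not move as a block. Of the 36, 12 were called at an adjusted p under 0.05 (33.3%), against 36.5% of all tested features, and the groups of 3 hearts did not overlap for 18 of 36, against 50.6%. The 7 called higher (19.4%) stand beside 18.7% of all features called higher, and the 5 called lower (13.9%) beside 17.8% called lower. These shares are near the background and are read as no result about the pathway. With library size alone 18 were called higher and 1 lower, where 60.4% of all features were called. The median log2 fold change was -0.12 over the 36 genes and -0.01 over all features, and the median size of the change was 0.42 against 0.40. Of the 36, 11 passed in the authors' deposited table at 0.05, against 27.6% of its features, and all 11 were called here in the same direction. What varied was which steps moved, as the plot of fold changes by role shows.

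**Figure D1:**
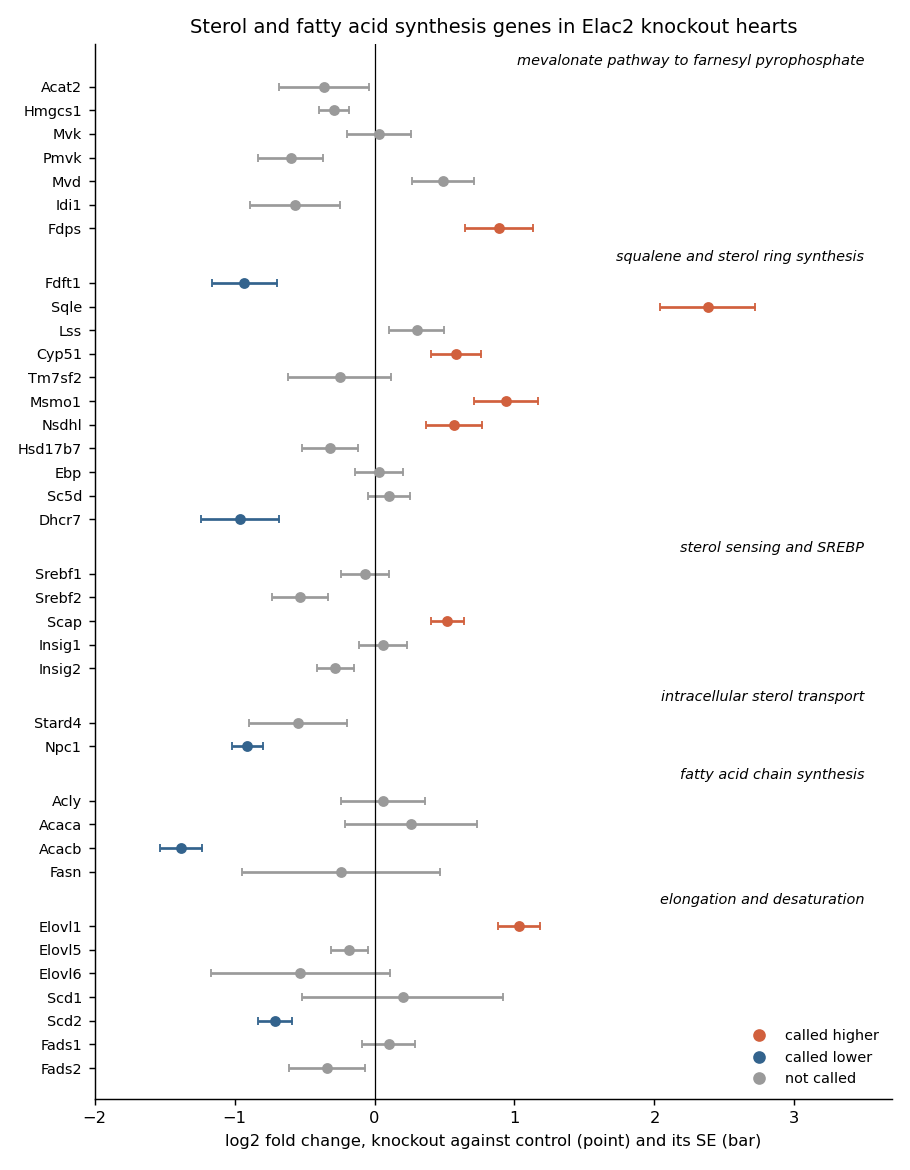
Log2 fold change of each of the 36 genes, knockout against control (x axis), as points with bars of 1 SE, grouped by role. Red points (7) were called higher and blue points (5) lower, at an adjusted p under 0.05 with edgeR, and grey points were not called. Sqle lies farthest to the right at 2.38 and Acacb farthest to the left at -1.38.

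In the mevalonate pathway, 1 of 7 genes was called higher and none lower, beside 18.7% and 17.8% of all features. The summed level was 51.8 to 53.1 CPM in controls and slightly lower in knockouts, at 43.2 to 49.2 CPM. Most of this sum was Hmgcs1, which was not called, at 33.6 to 37.3 CPM in controls and 26.4 to 31.0 CPM in knockouts. Fdps, farnesyl pyrophosphate synthase, was at 4.06, 3.11 and 2.09 CPM in the controls and at 5.52, 6.45 and 5.56 CPM in the knockouts. Every knockout was above every control. It rose 1.85-fold (log2 0.89, SE 0.24, adjusted p = 0.0164). The gene lies on chromosome 3, 89093588 to 89101959, minus strand (ENSMUSG00000059743.12; coordinates are GRCm38, the same build as mm10). The call was lost without control 2 (0.89, adjusted p = 0.0529) or without knockout 2 (0.81, adjusted p = 0.0646). An annotated gene on the same strand, Gm43738, shares 26.7% of the Fdps exon length.

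The other mevalonate enzymes gave mixed values. Hmgcs1, the cytosolic HMG-CoA synthase at the head of the pathway, was at 33.6, 35.1 and 37.3 CPM in controls and 26.4, 31.0 and 29.3 CPM in knockouts. Its groups did not overlap, but it did not pass the test (-0.29, SE 0.11, adjusted p = 0.0692) except with a filter of 50 counts in 3 libraries (-0.32, adjusted p = 0.0389), and library size alone turned it to 0.41. Per exon length it was the most abundant of the 7 genes, at 7.69 ± 0.408 RPKM in controls (CPM per kilobase of exon; SD, n = 3). The kinase Pmvk had a value of -0.60 (adjusted p = 0.0619), and -0.74 without knockout 3 (adjusted p = 0.0459), with every knockout below every control. The decarboxylase Mvd had 0.49 (adjusted p = 0.111), with no overlap in the other direction. Mvk, mevalonate kinase, was at 0.03 (SE 0.23), and Acat2, the cytosolic thiolase, and Idi1, the isopentenyl pyrophosphate isomerase, were at -0.36 and -0.57 with overlapping groups. Acat2 shares a stretch of 445 bases with Tcp1 transcripts at 98.652% identity, and Tcp1 had 10966 counts over the 6 libraries against 144 for Acat2.

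In squalene and sterol ring synthesis, the longest of the role lists, 4 of 11 genes were called higher and 2 lower, where 36.5% of all features were called. The genes that rose encode squalene epoxidase (Sqle), the enzyme that removes the 14-methyl group (Cyp51) and a pair of the enzymes that remove the methyl groups at carbon 4 (Msmo1, Nsdhl). Hsd17b7, which also acts in removal at carbon 4, was not called, at -0.32 with every knockout below every control. The genes that fell encode the enzyme just before Sqle, squalene synthase (Fdft1), and that of the last step, reduction of 7-dehydrocholesterol (Dhcr7). Summed over the 11 genes the level was 76.0 to 82.2 CPM in controls and 71.1 to 87.6 CPM in knockouts, so the groups overlapped.

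Sqle (ENSMUSG00000022351.14, chromosome 15, 59315077 to 59331192, plus strand) was at 0.978, 0.333 and 0.697 CPM in controls 1, 2 and 3, from 13, 3 and 6 counts. In the knockouts it was at 4.35, 3.54 and 3.06 CPM, from 82, 61 and 38 counts. The lowest knockout was thus well above the highest control, though the control level rests on few counts. Sqle rose by 2.38 (SE 0.34, adjusted p = 6.63e-04), or 5.19-fold, the largest change among the 36 genes, and it stayed called without each library in turn (2.09 to 2.83). With a filter of 50 counts in 3 libraries it was not tested. Per exon length it went from the lowest of the 36 genes in controls, 0.121 ± 0.0583 RPKM, to 0.658 ± 0.118 RPKM in knockouts.

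Msmo1, methylsterol monooxygenase (ENSMUSG00000031604.10, chromosome 8, 64718139 to 64733792, minus strand), was at 6.17, 4.78 and 3.14 CPM in controls and at 9.76, 9.58 and 8.05 CPM in knockouts. All knockouts were above all controls, and it rose by 0.94 (SE 0.23, adjusted p = 9.72e-03). Cyp51, lanosterol demethylase (ENSMUSG00000001467.5, chromosome 5, 4081145 to 4104746, minus strand), was at 10.2, 7.33 and 7.43 CPM in controls and 11.1, 12.3 and 14.3 CPM in knockouts. Control 1 came within 1 CPM of knockout 1, and the rise was smaller (0.58, SE 0.18, adjusted p = 0.0272). Nsdhl, the sterol C4 decarboxylating dehydrogenase (ENSMUSG00000031349.4, chromosome X, 72918557 to 72958514, plus strand), was at 3.01, 2.89 and 2.67 CPM in controls and 3.82, 4.53 and 4.43 CPM in knockouts. The groups were apart, yet its call was near the threshold (0.57, SE 0.20, adjusted p = 0.0492).

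The Cyp51 call was lost without control 2 (0.51, adjusted p = 0.0992), control 3 (0.51, adjusted p = 0.0881), knockout 2 (0.60, adjusted p = 0.0649) or knockout 3 (0.49, adjusted p = 0.0816). That of Nsdhl was lost without any 1 library but knockout 1: without controls 1, 2 and 3 its adjusted p was 0.0793, 0.106 and 0.116, and without knockouts 2 and 3 it was 0.142 and 0.109, with values from 0.52 to 0.61. Nsdhl was also not called with DESeq2 (adjusted p = 0.156), limma-voom (adjusted p = 0.0596) or a robust fit (adjusted p = 0.0525).

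Fdft1, squalene synthase (ENSMUSG00000021273.9, chromosome 14, 63145150 to 63179578, minus strand), was at 12.1, 13.9 and 11.7 CPM in controls and 4.25, 7.84 and 7.89 CPM in knockouts. Every knockout was below every control, knockout 1 the farthest. It fell by 0.93 (SE 0.23, adjusted p = 0.0108). The gene shares 774 exon bases, 18.3% of its exon length, with Ctsb on the opposite strand, and no source used here says whether strand was used in counting, so the origin of reads in that stretch is uncertain. Ctsb had 17844 counts over the 6 libraries against 700 for Fdft1.

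Dhcr7, 7-dehydrocholesterol reductase (ENSMUSG00000058454.15, chromosome 7, 143823145 to 143848410, plus strand), was at 2.48, 3.67 and 4.65 CPM in controls and 1.70, 1.97 and 1.77 CPM in knockouts. The controls were spread and the knockouts close together, with no overlap. It fell by 0.96 (SE 0.28, adjusted p = 0.0217). This call did not hold without control 2 (-0.93, adjusted p = 0.0671), control 3 (-0.73, adjusted p = 0.0902) or knockout 2 (-1.02, adjusted p = 0.0517). With library size alone neither Fdft1 (-0.23, adjusted p = 0.41) nor Dhcr7 (-0.24, adjusted p = 0.486) was called.

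The remaining 5 genes of this stage were not called. Lss, lanosterol synthase, had 0.30 (SE 0.20, adjusted p = 0.271) with every knockout above every control. Hsd17b7, the 3-ketosteroid reductase of C4 demethylation, was at 20.8, 21.6 and 21.1 CPM in controls and 11.3, 19.3 and 20.5 CPM in knockouts, so only knockout 1 was far below (-0.32, adjusted p = 0.244). Ebp, the sterol isomerase, and Sc5d, the sterol desaturase, had 0.03 (SE 0.17) and 0.10 (SE 0.15). Tm7sf2, a sterol reductase, had -0.25 (SE 0.37) and turned to 0.19 without control 1 and knockout 3, as control 1 held 2.86 CPM against 1.11 to 1.93 CPM elsewhere.

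**Figure D2:**
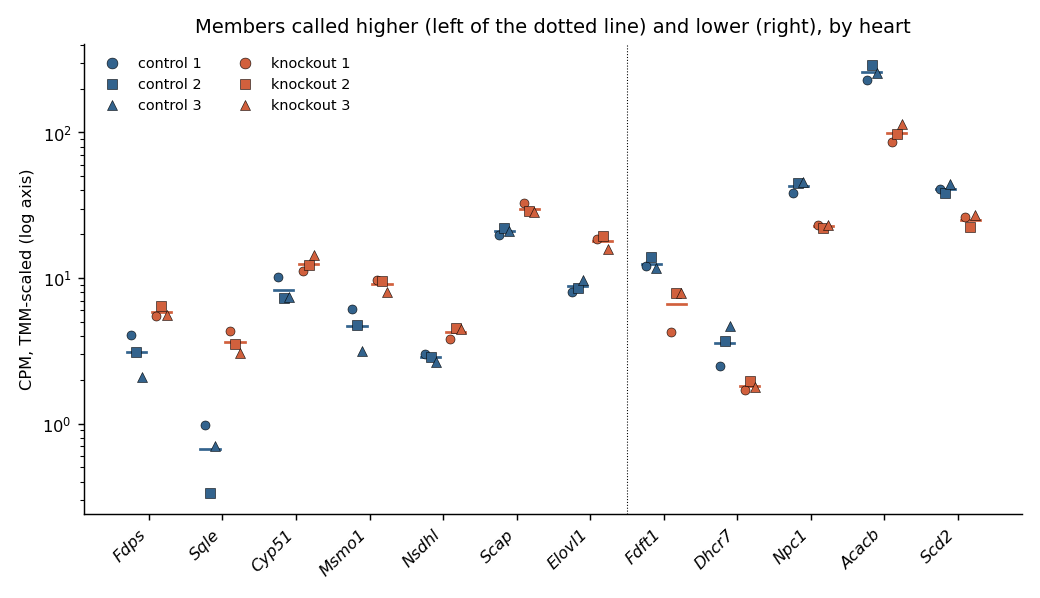
Level in CPM (y axis, log scale) of the 12 called genes in each of the 6 hearts, with genes called higher to the left of the dotted line and those called lower to its right. Blue marks are controls and red marks knockouts, and the short lines are group means. For all 12 genes, which were chosen by the test on these same values, the red and blue marks do not overlap.

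Of the 5 genes of sterol sensing, 1 was called higher and none lower, beside 18.7% and 17.8% of all features. Scap, the escort of SREBPs (ENSMUSG00000032485.14, chromosome 9, 110333288 to 110384950, plus strand), was at 19.6, 22.1 and 21.1 CPM in controls and 32.8, 28.8 and 28.3 CPM in knockouts. The groups were well apart, and it rose by 0.52 (SE 0.12, adjusted p = 7.08e-03). An annotated gene on the other strand, 5830462I19Rik, covers 13.2% of its exon length. Srebf2, the SREBP best known for cholesterol genes, was at 16.2, 13.0 and 17.4 CPM in controls and 13.8, 10.2 and 8.21 CPM in knockouts. These overlap through knockout 1, and the gene was not called (-0.53, SE 0.20, adjusted p = 0.0639) except without knockout 1 (-0.75, adjusted p = 5.15e-03) or with no filter (-0.47, adjusted p = 0.0279). Srebf1, the SREBP best known for fatty acid genes, was at -0.07 (SE 0.17), and library size alone gave 0.61 (adjusted p = 0.024).

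The retention proteins Insig1 and Insig2 had 0.06 (SE 0.17) and -0.28 (SE 0.13, adjusted p = 0.114). Insig2 was at 26.4, 22.7 and 24.2 CPM in controls and 21.8, 20.8 and 17.8 CPM in knockouts, with no overlap. Insig1, itself a well-known SREBP target, was at 11.1, 9.67 and 7.43 CPM in controls and 9.45, 10.3 and 9.90 CPM in knockouts, so the knockouts lay inside the range of the controls.

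Of the 2 sterol carriers, Npc1, which exports cholesterol from lysosomes (ENSMUSG00000024413.13), was called lower, beside 17.8% of all features. It was at 38.5, 44.7 and 45.9 CPM in controls and 23.1, 22.2 and 23.3 CPM in knockouts. The knockouts were nearly equal and far below the controls. Npc1 fell by 0.91 (SE 0.11, adjusted p = 2.89e-04), a call kept without each library in turn (-0.98 to -0.86) and lost with library size alone (-0.20, adjusted p = 0.354). Stard4, a cytosolic sterol carrier, was at 4.44, 5.11 and 5.81 CPM in controls and 5.31, 3.25 and 1.61 CPM in knockouts. Its knockouts differed among themselves by more than the groups did, and it was not called (-0.55, SE 0.35, adjusted p = 0.245) except without knockout 1 (-1.01, adjusted p = 0.0184).

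Among the 4 genes that build the fatty acid chain, Acacb was called lower, beside 17.8% of all features. The others, Acly, Acaca and Fasn, were not called. Acacb, the acetyl-CoA carboxylase at the mitochondrial surface (ENSMUSG00000042010.16, chromosome 5, 114146535 to 114250761, plus strand), was at 229.9, 289 and 257 CPM in controls and 85.7, 97.1 and 115 CPM in knockouts. The highest knockout was below the lowest control by a wide margin. It fell by 1.38 (SE 0.15, adjusted p = 1.28e-04), to 0.383 of the control level, and was called under every setting tried, library size alone included (-0.68, adjusted p = 7.19e-03). Per exon length it was the most abundant of the 36 genes in controls, at 26.9 ± 3.07 RPKM, and fell to 10.3 ± 1.52 RPKM.

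The cytosolic enzymes varied between hearts of the same group. Fasn, fatty acid synthase, was at 218, 41.7 and 41.4 CPM in controls 1, 2 and 3 and at 49.1, 32.8 and 175 CPM in knockouts 1, 2 and 3. Acaca, the cytosolic acetyl-CoA carboxylase, was at 54.6, 19.3 and 20.6 CPM in controls and 25.4, 22.3 and 68.0 CPM in knockouts. Control 1 and knockout 3 were the high libraries for both genes. Acly, which makes cytosolic acetyl-CoA from citrate, was at 56.8, 33.4 and 32.2 CPM in controls and 31.2, 32.3 and 65.4 CPM in knockouts, with the same 2 libraries high. The log2 fold changes were -0.24 (SE 0.71) for Fasn, 0.26 (SE 0.47) for Acaca and 0.06 (SE 0.30) for Acly, none of them called. Without control 1 Fasn and Acaca were at 1.04 and 0.94, and without knockout 3 at -1.30 and -0.42, again not called. A processed pseudogene, Gm5182, matches Acaca over 6118 bases at 99.199% identity and had 505 counts against 2783, so some reads of the pair may be split.

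Lengthening and desaturation gave 1 call in each direction among 7 genes, where 36.5% of all features were called. Elovl1, the elongase of saturated very long chains (ENSMUSG00000006390.15, chromosome 4, 118428093 to 118432953, plus strand), was at 7.97, 8.56 and 9.76 CPM in controls and 18.4, 19.4 and 15.8 CPM in knockouts. The groups were far apart, and it rose by 1.03 (SE 0.15, adjusted p = 6.14e-04), or 2.05-fold, a call kept without each library in turn (0.97 to 1.12). Scd2, a stearoyl-CoA desaturase (ENSMUSG00000025203.5, chromosome 19, 44293674 to 44306864, plus strand), was at 41.2, 38.2 and 44.0 CPM in controls and 26.1, 22.4 and 27.2 CPM in knockouts. Control 1 and knockout 3 did not stand apart here, and the gene fell by 0.71 (SE 0.12, adjusted p = 1.58e-03), although library size alone gave -0.01 (adjusted p = 0.967).

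Scd1, another stearoyl-CoA desaturase, was at 93.4, 28.4 and 31.7 CPM in controls and 21.7, 18.1 and 140.0 CPM in knockouts. Elovl6, which extends palmitate to stearate, was at 6.77, 2.44 and 2.32 CPM in controls and 1.75, 0.871 and 6.12 CPM in knockouts. In both genes control 1 and knockout 3 were again the high libraries, and neither gene was called (0.20, SE 0.72 for Scd1 and -0.53, SE 0.64 for Elovl6). Without knockout 3 both were called lower, Scd1 at -1.37 (adjusted p = 0.0391) and Elovl6 at -1.59 (adjusted p = 0.0381). Scd1 and Scd2 match over 623 bases at 95.506% identity, so some of their reads may be shared. The elongase Elovl5 was at -0.18 (SE 0.13), and library size alone gave 0.50 (adjusted p = 0.0449). The delta-5 and delta-6 desaturases Fads1 and Fads2 were at 0.10 (SE 0.19) and -0.34 (SE 0.27), the latter being called lower without knockout 1 (-0.68, adjusted p = 0.0489).

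The pattern of control 1 and knockout 3 was shared with fat cell genes. A level at least 2-fold higher in control 1 than in controls 2 and 3, and in knockout 3 than in knockouts 1 and 2, was found for 22 of 14302 tested features (0.154%). Among them were 4 of the 36 genes, Fasn, Scd1, Acaca and Elovl6, while Acly did not reach 2-fold in control 1. The same 22 held 6 of the 11 adipocyte markers, Adipoq, Plin1, Cidec, Cfd, Pck1 and Ucp1, and also Thrsp, a lipogenic nuclear protein, and Tkt, the transketolase of the pentose phosphate pathway. This pattern was noticed in the data, and the 2-fold limit was set afterwards.

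Adipoq, which encodes the fat cell hormone adiponectin, was at 6.39, 0.889 and 1.28 CPM in controls and 0.478, 0.929 and 11.9 CPM in knockouts. Plin1, the coat protein of fat cell lipid droplets, was at 9.78, 2.22 and 1.63 CPM in controls and 1.17, 0.813 and 9.42 CPM in knockouts. Ucp1, the brown fat uncoupling protein, was at 21.6, 0.778 and 0.116 CPM in controls and 0.955, 0.465 and 10.8 CPM in knockouts. These are among the genes that met the 2-fold limit above, and in each control 1 and knockout 3 were above all other hearts. Summed over the list without Lpl and Fabp4, which heart muscle and its vessels also express, the level was 118, 23.0 and 18.5 CPM in controls and 14.1, 25.6 and 125 CPM in knockouts. Over the whole list it was 1912, 2025 and 2448 CPM in controls and 572, 678 and 975 CPM in knockouts. There control 1 was the lowest of the controls, as it was for Lpl and Retn. Cidea was nearly as high in knockout 2 (17.5 CPM) as in knockout 3 (18.5 CPM). Of the 11 markers 9 were tested, and 1 was called, Lpl, which fell by 1.85 (adjusted p = 1.79e-04). Lep, the gene of leptin, was at 0.00 CPM in 3 of the hearts and at most 0.242 CPM in the others. The part of these markers in the values of Fasn, Scd1, Acaca, Acly and Elovl6 was not tested.

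**Figure D3:**
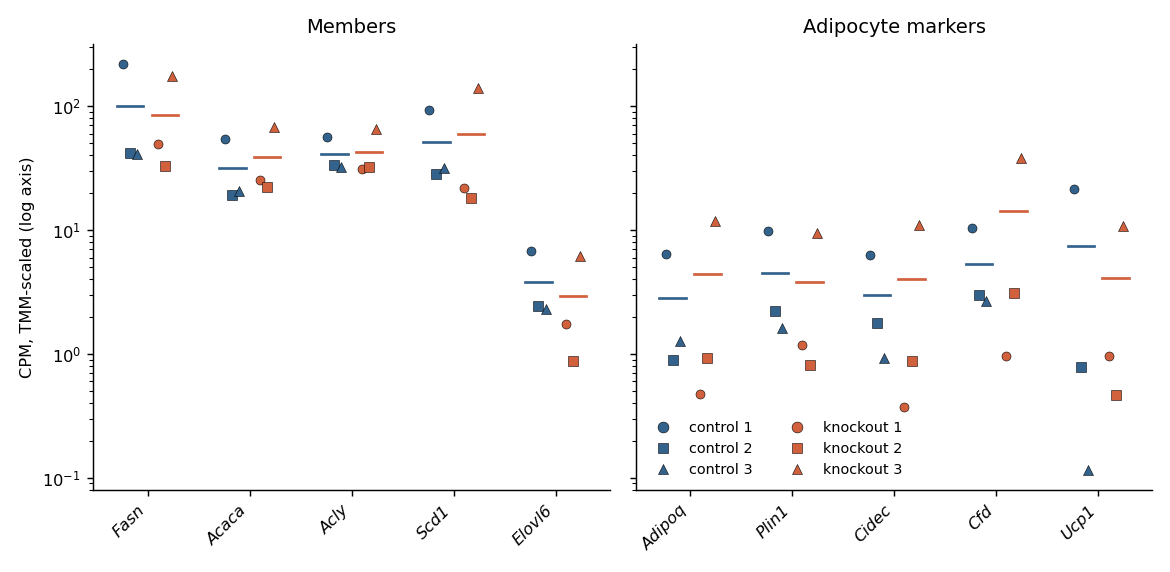
Level in CPM (y axis, log scale) in each heart of 5 synthesis genes (left) and 5 adipocyte markers (right); blue marks are controls, red marks knockouts, marker shapes the heart numbers, and short lines the group means. Control 1 (blue circle) and knockout 3 (red triangle) are the highest of their group for all 10 genes. All but Acly met the 2-fold limit that defined this pattern, so their agreement follows from that limit.

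Without control 1 and knockout 3, a setting chosen after seeing the data, 6 of the 36 genes were called higher and 6 lower, and 25.7% of all features were called. Of the 12 calls 11 remained, Nsdhl was lost (0.60, adjusted p = 0.143), and Scd1 was called lower (-0.57, adjusted p = 0.0461). With 2 hearts a group, Fasn was at 0.00 (adjusted p = 0.99), Acly at -0.03 (adjusted p = 0.899), Acaca at 0.28 (adjusted p = 0.254) and Elovl6 at -0.83 (adjusted p = 0.19). Sqle rose by 2.95 (adjusted p = 3.87e-03) and Acacb fell by 1.56 (adjusted p = 1.23e-03) in these hearts.

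Ratios of related genes within a library need no scaling between libraries. The two-sided exact permutation test over 3 against 3 hearts cannot go below 0.1, and p-values were adjusted over 4 ratios. The Insig1 to Insig2 count ratio was 0.422, 0.426 and 0.308 in controls and 0.434, 0.493 and 0.557 in knockouts, so it was higher in every knockout. The log2 ratio differed by 0.37, with the smallest p the design allows (exact p = 0.1, adjusted p = 0.4). For Acaca to Acacb the ratio was 0.238, 0.0669 and 0.0799 in controls and 0.296, 0.230 and 0.593 in knockouts, a log2 difference of 1.66 (exact p = 0.2, adjusted p = 0.4), with control 1 just above knockout 2. Without control 1 and knockout 3 that difference was 1.83, where 2 against 2 hearts allow no p under 0.333.

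The remaining pair of ratios overlapped between groups. Srebf1 to Srebf2 was 1.33, 1.48 and 0.867 in controls and 1.37, 1.45 and 2.41 in knockouts (log2 difference 0.50, exact p = 0.3, adjusted p = 0.4). Scd1 to Scd2 was 2.27, 0.744 and 0.720 in controls and 0.831, 0.806 and 5.14 in knockouts (log2 difference 0.50, exact p = 0.5, adjusted p = 0.5). Knockout 3 set the direction of the latter, which was -0.38 without it and 0.16 without both control 1 and knockout 3.

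**Figure D4:**
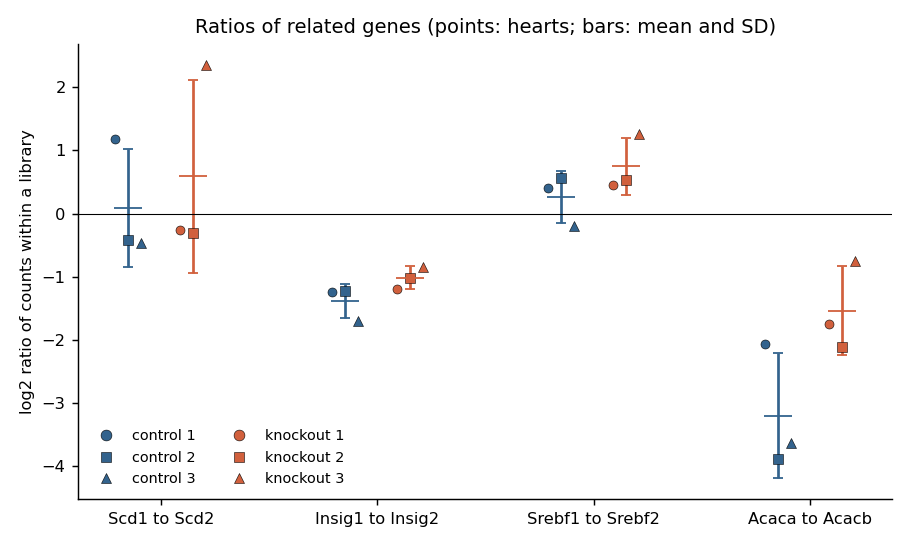
Log2 ratio of counts of 2 related genes within each library (y axis), as points per heart with the group mean and SD (n = 3), blue for controls and red for knockouts. The Insig1 to Insig2 points do not overlap between groups, and those of the other three ratios do.

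Genes that neighbour these pathways were taken from 10 lists, with 100 genes in the tables and 94 tested. Of these, 18 were called higher and 19 lower (39.4%, against 36.5% of all features), with a median log2 fold change of 0.06. Each list but those of citrate and NADPH supply and of glycerolipid synthesis held calls in both directions. Over all features 18.7% were called higher and 17.8% lower, and the counts per list below stand beside these shares.

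The list of sterol ester, lysosomal sterol and oxysterol genes had 2 of 8 called higher and 2 lower. Soat2, which esterifies cholesterol, had 3, 1 and 0 counts in controls and 134, 153 and 128 counts in knockouts. These are 0.226, 0.111 and 0.00 CPM in controls and 7.11, 8.88 and 10.3 CPM in knockouts, so the gene was close to undetected in controls and measured in every knockout. It rose by 5.98 (SE 0.42, adjusted p = 1.36e-05), a size that depends on the few control counts. Npc2, the soluble partner of Npc1 in lysosomes, rose by 0.40 (adjusted p = 0.0161) where Npc1 fell. Hsd3b7, of bile acid synthesis, fell by 0.91 (adjusted p = 0.0147), and Osbp, the oxysterol-binding protein, fell by 0.46 (adjusted p = 0.0128).

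Calls in both directions were also found among genes of SREBP processing and turnover. Pgrmc1, a membrane protein that binds Insig1 and Cyp51, rose by 0.93 (adjusted p = 9.59e-04). Fbxw7, which marks nuclear SREBPs for degradation, fell by 0.61 (adjusted p = 2.77e-03).

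Other known SREBP targets had 2 of 11 called in each direction. Tmem97, a sterol-binding membrane protein, rose by 1.59 (adjusted p = 5.04e-04), and Rdh11, a retinol dehydrogenase, rose by 1.67 (adjusted p = 2.89e-04). Lpin1, the phosphatidate phosphatase and nuclear coactivator, had 182 ± 18.8 CPM (SD, n = 3) in controls against 49.9 ± 10.3 CPM (SD, n = 3) in knockouts and fell by 1.87 (SE 0.16, adjusted p = 3.98e-05). Pnpla3, a lipid droplet hydrolase, fell by 1.27 (adjusted p = 0.0224). These counts are near the shares over all features, 18.7% called higher and 17.8% lower, and are read as no result about SREBP targets.

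The LXR receptors and targets had 1 of 9 called each way, with Apoe, the lipoprotein ligand, higher by 0.51 (adjusted p = 0.0115) and Lpcat3, which remodels phospholipids, at -0.59 (adjusted p = 5.93e-03). On the prenyl and dolichol branch, which leaves the sterol route at farnesyl pyrophosphate, Ggps1 rose by 0.64 (adjusted p = 4.72e-03) and Pdss2, of coenzyme Q side-chain synthesis, fell by 0.43 (adjusted p = 0.0296), with the other seven not called. Citrate and NADPH supply had 1 of 7 called, Taldo1, which rose by 0.97 (adjusted p = 7.07e-04).

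Lipogenic transcription factors and AMPK subunits had 3 of 10 called higher and 5 lower. Mlxipl, the carbohydrate-responsive factor ChREBP, was at 11.4, 10.7 and 13.1 CPM in controls and 3.77, 3.60 and 4.35 CPM in knockouts and fell by 1.59 (SE 0.16, adjusted p = 1.07e-04). Its paralog Mlxip fell by 0.89 (adjusted p = 2.57e-03). Of the kinase subunits, Prkab2 rose by 1.53 (adjusted p = 8.40e-05) and its paralog Prkab1 fell by 0.76 (adjusted p = 3.17e-03). The catalytic subunit Prkaa2 fell by 0.65 (adjusted p = 1.63e-03) and the other catalytic subunit, Prkaa1, rose by 0.49 (adjusted p = 0.0276). AMPK is known for phosphorylating and so inhibiting both acetyl-CoA carboxylases.

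The elongation cycle and the other elongases and desaturases had 5 of 11 called higher and 1 lower. Fads3, a desaturase of sphingoid bases, rose by 1.31 (adjusted p = 2.89e-04), and the dehydratases Hacd4 and Hacd1 rose by 1.17 (adjusted p = 1.06e-03) and 0.48 (adjusted p = 0.015). Tecr, the reductase that ends each elongation round, fell by 0.82 (adjusted p = 7.37e-03).

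Glycerolipid synthesis had 0 of 13 called higher and 4 lower. Besides Lpin1 these were Agpat3, an acyltransferase (-0.61, adjusted p = 3.77e-03), Dgat2, which makes triacylglycerol (-1.26, adjusted p = 5.95e-03), and Plin5, the lipid droplet protein of oxidative tissue (-1.25, adjusted p = 0.0129). The mitochondrial fatty acid synthesis route, which makes the octanoyl chain for lipoic acid, had 1 of 9 called higher and 3 lower. Ndufab1, its acyl carrier protein, fell by 0.71 (adjusted p = 2.64e-03), Oxsm, its ketoacyl synthase, fell by 0.81 (adjusted p = 6.24e-03), and Cbr4, a reductase subunit, fell by 0.57 (adjusted p = 0.0195), while Lias, lipoic acid synthetase, rose by 0.37 (adjusted p = 0.0315).

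**Figure D5:**
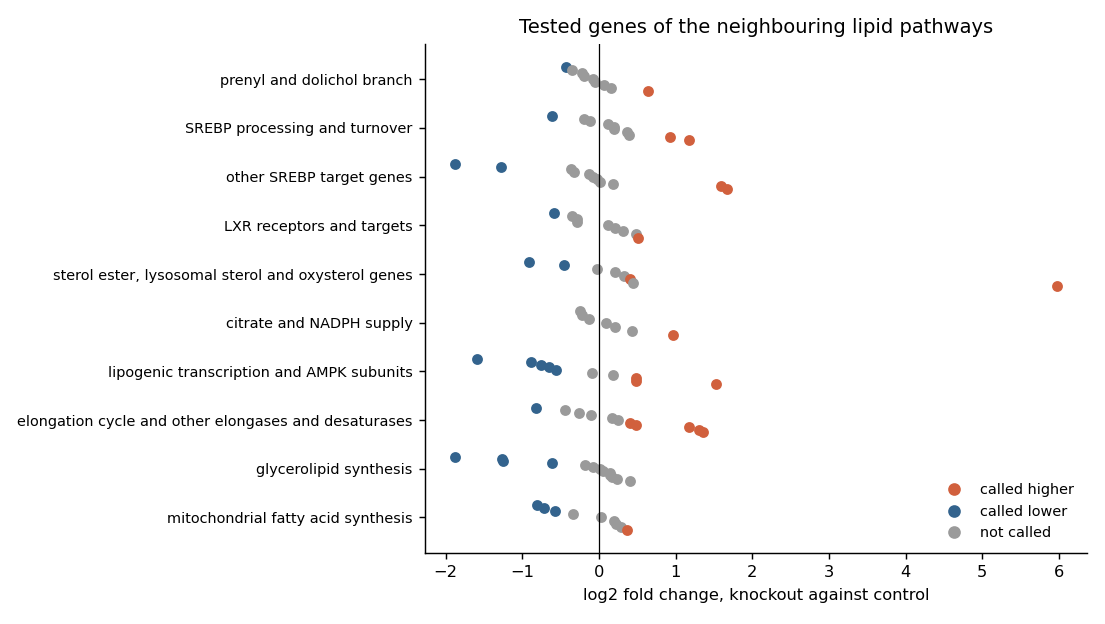
Log2 fold change, knockout against control (x axis), of each tested gene of 10 neighbouring lists (rows), with genes called higher in red, called lower in blue and not called in grey. Soat2 lies alone at 5.98, and in the glycerolipid list all 4 called genes lie to the left of 0.

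Markers of the cell types in the heart were read beside these results. Over all features 18.7% were called higher and 17.8% lower, and the counts of called markers stand beside these shares. No change in the share of a cell type was tested. Of 10 cardiomyocyte markers, 5 were called lower and 1 higher, and their summed level was 95201 to 97537 CPM in controls and 64658 to 67253 CPM in knockouts. Of 10 endothelial markers 5 were called lower. Of 10 smooth muscle and pericyte markers 3 were lower and 2 higher, and 1 each of 10 fibroblast, 10 macrophage and 7 erythroid markers was higher. Among 9 atrial markers Nppa was higher and Tbx5 lower, with the summed level at 386 CPM in control 2 and at 1517 CPM or more in the other hearts. Of 5 tested Schwann cell markers none was called, and Ncmap, of Schwann cells, was at 0.00 CPM in all controls. The part of these markers in the changes of Acacb, Npc1, Scd2, Fdft1 and Dhcr7 was not tested.

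Within the groups the median ratio of the highest to the lowest heart was 1.32 in controls and 1.32 in knockouts, against 1.29 and 1.31 over all features. In each group 6 of the 36 genes differed 2-fold or more between hearts, against 1365 of 14302 features in controls and 1528 in knockouts.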

How the data were processed

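Heart RNA of 3 control and 3 knockout mice was compared, with groups and replicate numbers from the sample titles and the technical replicates of a mouse merged in 1 column. The submitters' processing notes name HISAT2 2.0.5, SAMtools 1.5, featureCounts 1.5.1, DESeq2 1.16.1 and mm10, with no role or option. The authors deposited whole-number counts per gene, and normalised values that are a signal, counts divided by 1 size factor per library. The authors' deposited table gives log2 fold changes, a test statistic that is a score, and p-values. Counts were fitted over all features with edgeR 4.0.16 (quasi-likelihood test, R 4.3.3, TMM, filterByExpr with its default minimum count of 10), and adjusted p-values (Benjamini-Hochberg, called under 0.05) are from it unless another tool is named. The SE is the log2 fold change over the square root of F.

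The 36 genes, the lists and the markers were chosen with earlier results of these data known. Named are all 36 genes, Elac2 and up to 4 called genes of each other pathway list with the smallest adjusted p. Some of the markers that were called, near 0 or most abundant are named too, and other called markers are not. Adipoq, Plin1, Cidec, Cfd, Pck1, Ucp1, Retn, Cidea, Thrsp, Tkt, Prkaa1 and Prkab1 were named outside this rule, after their values were seen. The values of 1 gene of a pathway list are not reported here. Of 51875 Ensembl identifiers 51682 were in GENCODE M21 (GRCm38), which gave coordinates and exon lengths. Similar transcripts were sought with blastn (at least 90% identity over 300 bases), and motifs in RefSeq promoter windows. The fit was tested on simulated data. Libraries of a group differed beyond sampling noise (chi-square per degree of freedom 8.13 to 84.33), so each mouse counted once. The labels do not say that numbers pair mice, and deviations of same-numbered hearts correlated at -0.198, 0.085 and -0.087. Alternatives were other scalings (library size alone, RLE, and TMM fitted without mitochondrial-encoded genes), filters, thresholds and tests (DESeq2 1.42.0, limma-voom with limma 3.58.1, a robust fit), each library left out, a replicate block, and the authors' table.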

Additional observations from a re-analysis of the deposited data

How the results depend on the processing

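The counts of 7 genes called higher and 5 lower were within 1.5 times of these under RLE scaling, TMM without mitochondrial-encoded genes, no filter, the stricter filter, DESeq2, limma-voom, the robust fit, the replicate block and the authors' deposited table. Under library size alone 18 were higher, 1 was lower and the median was 0.56, where all features had 0.68. An adjusted p under 0.01 gave 4 higher and 3 lower, and an added limit of 1 on the log2 scale 2 higher and 1 lower. Leaving out 1 library gave 4 to 7 higher, 4 to 8 lower and a median from -0.23 to 0.07. With the replicate block 5 were higher and 5 lower, Cyp51 (adjusted p = 0.0571) and Nsdhl (adjusted p = 0.103) being lost. The Scd1 to Scd2 log2 ratio ran from -0.38 to 1.04 when 1 library was left out, and the replicate block left all 4 ratios uncalled (smallest p possible 0.25).

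None of the 12 called genes changed sign under the settings tried, and the sign turned in these genes that were not called. Library size alone gave Hmgcs1 0.41, Pmvk 0.07, Idi1 0.10, Tm7sf2 0.40, Hsd17b7 0.37, Insig2 0.41, Srebf1 0.61, Srebf2 0.17, Stard4 0.16, Acat2 0.32, Fasn 0.31, Elovl5 0.50, Elovl6 0.11 and Fads2 0.35. Without control 1 and knockout 3, added after the data were seen, Mvk was at -0.17, Tm7sf2 at 0.19, Fasn at 0.00, Acly at -0.03 and Scd1 at -0.57. Scd1 was at -0.27 with the replicate block and at -0.25 with limma-voom. With 1 library left out, values spanned 0 for Mvk (-0.08 to 0.10), Tm7sf2 (-0.48 to 0.33), Ebp (-0.05 to 0.10), Insig1 (-0.08 to 0.21), Srebf1 (-0.19 to 0.06), Fasn (-1.30 to 1.04), Acaca (-0.42 to 0.94), Acly (-0.37 to 0.39), Scd1 (-1.37 to 0.99), Elovl6 (-1.59 to 0.23) and Fads1 (-0.11 to 0.23). Beyond the scaling, the cause of these turns was not tested. Genes at a few CPM, such as Sqle in controls (3 to 13 counts), are limited by depth.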
